A study of Mus musculus with 8 samples.

Results

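Expression of 10 desmosome genes was compared between the limbal rim and the corneal button of wild-type mice. The limbal rim is the ring where the cornea passes into the conjunctiva and sclera, and the disc of cornea that it encloses was taken as the corneal button. The genes were chosen by name, as the rows of the deposited table that carry the symbols Dsg2, Dsg3, Dsc2, Dsc3, Dsp, Jup, Pkp1, Pkp2, Pkp3 and Perp, and all 10 were found among 23420 named genes. Both tissues came from 8-week-old C57BL/6J animals with no treatment or transgene, and tissue from several eyes was pooled within each tissue before RNA extraction. GEO lists 4 numbered samples for each tissue, but the table holds the equivalent of 1 library per tissue, so no spread between animals or replicates was available and no test between the tissues was possible. The values below are numbers of reads worked back from the deposited means, 26104317 for the cornea library and 21182025 for the limbus library over all named genes. Each 95% interval is an exact Clopper-Pearson interval and covers counting error only, that is the error of drawing reads from these 2 libraries, and "beyond counting error" means that the interval of a ratio leaves out equality. Ratios are limbus over cornea after division by the size factors of the libraries, so a negative log2 ratio is a higher level in the cornea. In pooled tissue of this kind, fewer cells of a type and less RNA per cell cannot be told apart.

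Desmosomes are spot-like junctions that tie neighbouring epithelial cells together and anchor their keratin filaments. Desmogleins (Dsg) and desmocollins (Dsc) are the cadherins that bind across the gap between cells, plakoglobin (Jup) and the plakophilins (Pkp) form the plaque on their cytoplasmic tails, and desmoplakin (Dsp) links that plaque to keratin. Perp is a small membrane protein of desmosomes that stratified epithelia need for adhesion. The corneal epithelium is stratified and does not keratinize, and stratified epithelia change their desmosomal isoforms between the basal and the upper layers.

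Of the 10 genes, 9 were higher in the cornea beyond counting error and 1, Pkp2, was higher in the limbus. By the same rule the cornea was higher for 40.5% and the limbus for 36% of the 13932 named genes whose deposited mean was 10 or more. Their median log2 ratio was -0.54, beside -0.04 over those 13932 genes. The ratios ran from -1.53 for Dsc3 to 1.79 for Pkp2. A difference of at least 2-fold was reached by Dsc3 toward the cornea, where 8.88% of the background passed, and by Pkp2 toward the limbus, where 18% passed. Summed, the 10 genes took 1.17% of the cornea reads and 0.799% of the limbus reads. Abundant genes as a whole leaned the same way. Of the 3251 genes as abundant as Dsg2, the next to lowest of the 10, or more so, the cornea was higher for 58.8% and the limbus for 29.6%, and the median log2 ratio was -0.20.

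**Figure D1:**
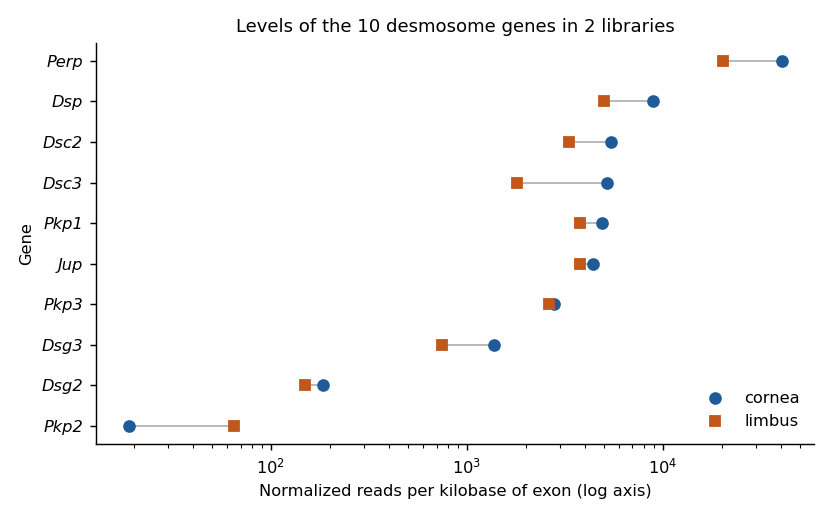
Normalized reads per kilobase of annotated exon (log axis) of the 10 desmosome genes, 1 circle for the cornea library and 1 square for the limbus library, with no error bars. Perp lies highest in both libraries and Pkp2 lowest, and Pkp2 is the gene whose square lies to the right of its circle.

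Levels can be compared between genes only per length, and per kilobase of exon they differed widely. In the cornea library the order by normalized reads per kilobase was Perp, Dsp, Dsc2, Dsc3, Pkp1, Jup, Pkp3, Dsg3, Dsg2 and Pkp2, and in the limbus library Dsc3 stood below Pkp3 while Pkp1 and Jup followed Dsp. Perp reached 40460.5 normalized reads per kilobase in the cornea and 20347 in the limbus. Pkp2 reached 18.8 and 65.0, a level above that of 37.2% of the genes in the cornea and 51.5% in the limbus. Without Pkp2, the lowest of the genes was Dsg2, which still exceeded 70.8% of genes in the cornea and 68.0% in the limbus.

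The desmosomal cadherins lie in 1 cluster on chromosome 18, and all 4 of those studied were higher in the cornea, Dsg2 only while the libraries were not scaled to total reads. Dsc3, the desmocollin of the lower layers of stratified epithelia, lies at chr18:19960930-20002351 on the minus strand (GRCm38). With 29146 cornea reads and 9473 limbus reads it had a log2 ratio of -1.53 (95% interval -1.56 to -1.49), or 2.88-fold higher in the cornea. Only 3.09% of the background genes had a lower ratio. Dsc2, the widely expressed desmocollin, lies beside it at chr18:20030633-20059554 on the same strand. It had 29550 cornea reads and 16903 limbus reads, a log2 ratio of -0.71 (-0.74 to -0.68). The 2 desmocollins therefore stood at nearly the same number of reads in the cornea library and well apart in the limbus library.

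Of the 2 desmogleins, Dsg3 had the lower log2 ratio, as Dsc3 had of the desmocollins. Unlike the desmocollins, the desmogleins stood further apart in the cornea (6.33 reads of Dsg3 per read of Dsg2) than in the limbus (4.19). Dsg3, the antigen of pemphigus vulgaris and a desmoglein of basal layers, lies at chr18:20510274-20547459 on the plus strand. With 9918 cornea reads and 5011 limbus reads it had a log2 ratio of -0.89 (-0.94 to -0.84). Dsg2, the desmoglein of simple epithelia and heart, lies next to it at chr18:20558074-20604521 on the plus strand. It had 1568 cornea reads and 1195 limbus reads, a log2 ratio of -0.30 (-0.41 to -0.19), with the widest interval of the 9 genes that were higher in the cornea. Under total reads it was -0.09 (-0.20 to 0.02), no longer beyond counting error. Its neighbouring pair, 1459 and 1297 reads, would give -0.07 (-0.18 to 0.03) and could not be fitted to the other deposited values. An antisense gene, Gm16090, overlaps Dsg2, and whether reads were counted by strand is not given in the sources used here.

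The other genes of the cluster, which are not among the 10, extended this range. Dsg1a, one of the 3 near-identical mouse genes for desmoglein 1, a desmoglein of upper layers, was covered by 22856 cornea reads and 4839 limbus reads. Its log2 ratio of -2.14 (-2.19 to -2.10) was lower than that of any of the 10 genes. Per kilobase of exon it stood at 3888 normalized reads in the cornea, above Dsg3 at 1375, and at 879.8 in the limbus, where Dsg3 had 742. Dsg1b had 877 and 351 reads, a log2 ratio of -1.23 (-1.41 to -1.05), and Dsg1c had 7 cornea reads and 0 limbus reads, which allows up to 3 of the latter. Since counting can split reads among such copies, their single values are uncertain. Summed over the 3 genes, the reads were 23740 and 5190, and the log2 ratio was -2.10 (-2.14 to -2.05). Dsc1, the desmocollin of cornified epithelia, was scarce at 52 and 22 reads, with a log2 ratio of -1.15 (-1.94 to -0.40). Dsg4, known from the hair follicle, had 1 cornea read and 0 limbus reads.

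Desmoplakin and plakoglobin differed in how far they leaned to the cornea. Dsp, the plakin that joins the plaque to keratin filaments, had the most reads of the 10 genes, 88716 from the cornea and 46876 from the limbus. Its log2 ratio was -0.82 (-0.84 to -0.81), or 1.77-fold higher in the cornea. It lies at chr13:38151294-38198577 on the plus strand, with a predicted gene, Gm10129, on the opposite strand. Jup, which also serves adherens junctions, had 29126 cornea reads and 23404 limbus reads, a log2 ratio of -0.22 (-0.24 to -0.20) that fell within counting error of equality under total reads (-0.01, interval -0.04 to 0.01). It lies at chr11:100368958-100397763 on the minus strand. Relative to Dsp, Jup was higher in the limbus library, with a log2 odds ratio of 0.60 (0.58 to 0.63).

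Dsp and Jup are also the 2 of the 10 genes that matched the table of promoters from RefSeq (GRCm38.p6), and the sequences are shown because these are neighbouring parts of the same plaque whose ratios differ. The 250 bases before each start in RefSeq are given 5′ to 3′ on the strand of the gene, and capitals mark matches to the GC box GGGCGG, the core letters bound by Sp1-type factors, on either strand. The window of Dsp is chr13:38151044-38151293 on the plus strand, and that of Jup is chr11:100397791-100398040 on the minus strand.
Dsp promoter: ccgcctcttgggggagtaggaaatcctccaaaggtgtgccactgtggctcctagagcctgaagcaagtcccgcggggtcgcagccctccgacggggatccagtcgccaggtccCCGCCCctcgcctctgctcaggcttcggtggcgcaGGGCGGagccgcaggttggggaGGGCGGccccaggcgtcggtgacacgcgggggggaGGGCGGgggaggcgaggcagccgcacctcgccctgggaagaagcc
Jup promoter: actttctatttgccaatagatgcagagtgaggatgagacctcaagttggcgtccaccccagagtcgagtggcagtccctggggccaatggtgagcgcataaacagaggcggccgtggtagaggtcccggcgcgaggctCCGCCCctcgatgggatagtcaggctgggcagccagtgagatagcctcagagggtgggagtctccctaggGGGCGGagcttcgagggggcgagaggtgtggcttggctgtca
The window of Dsp held 4 GC boxes and that of Jup held 2, and 32.7% of the 32851 promoter windows of this length held at least 1. The G and C content was 72.4% for Dsp and 62.0% for Jup, beside a median of 52.4% over all windows. The other motifs were searched on both strands, and neither window held any of them, so no match overlaps another. They were the AP-1 motif TGANTCA, held by 6.75% of all windows, the Grainyhead motif AACNGGTT, held by 1.79%, and the TATA box TATAAA, held by 12.4%. These matches describe letters in a window and are not measured binding.

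The plakophilins, the armadillo proteins that gather desmoplakin and cadherins in the plaque, held both the ratio nearest to equality, that of Pkp3, and the largest ratio toward the limbus, that of Pkp2. Pkp1, the plakophilin of stratified epithelia, lies at chr1:135871395-135919207 on the minus strand, with a predicted gene, Gm36938, on the same strand. It had 25461 cornea reads and 18456 limbus reads, a log2 ratio of -0.37 (-0.40 to -0.34). Pkp3, found in most epithelia, lies at chr7:141078218-141090510 on the plus strand. It had 10376 and 9215 reads, a log2 ratio of -0.08 (-0.12 to -0.03), but this direction turned when the libraries were scaled to total reads (0.13) and was lost when they were scaled to summed epithelial genes (0.000856, interval -0.04 to 0.04). Pkp2, the main plakophilin of the heart and of simple epithelia, lies at chr16:16213318-16272712 on the plus strand. With 104 cornea reads and 337 limbus reads it had a log2 ratio of 1.79 (1.47 to 2.12), or 3.46-fold higher in the limbus (2.77 to 4.36). The neighbouring pair that the mean of Pkp2 also allows, 213 and 235 reads, would give 0.24 (-0.04 to 0.51) but could not be fitted to the other deposited values. The ratio of Pkp2 exceeded that of 87.6% of the background genes, and it had the fewest reads of the 10 genes in both libraries.

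Perp had 81644 cornea reads and 38421 limbus reads, a log2 ratio of -0.99 (-1.01 to -0.97), or 1.99-fold higher in the cornea. The gene lies at chr10:18845020-18857073 on the plus strand. Its ratio was lower than that of Dsp, with a log2 odds ratio of Perp to Dsp of -0.17 (-0.19 to -0.14). The plot of ratios gene by gene shows the order Dsc3, Perp, Dsg3, Dsp, Dsc2, Pkp1, Dsg2, Jup, Pkp3 and Pkp2 from the cornea to the limbus. Within it, Pkp1 and Dsg2 did not differ beyond counting error (log2 odds ratio -0.07, interval -0.19 to 0.04), nor did Dsg2 and Jup (-0.08, interval -0.19 to 0.04). The other 7 pairs of neighbours differed beyond counting error.

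**Figure D2:**
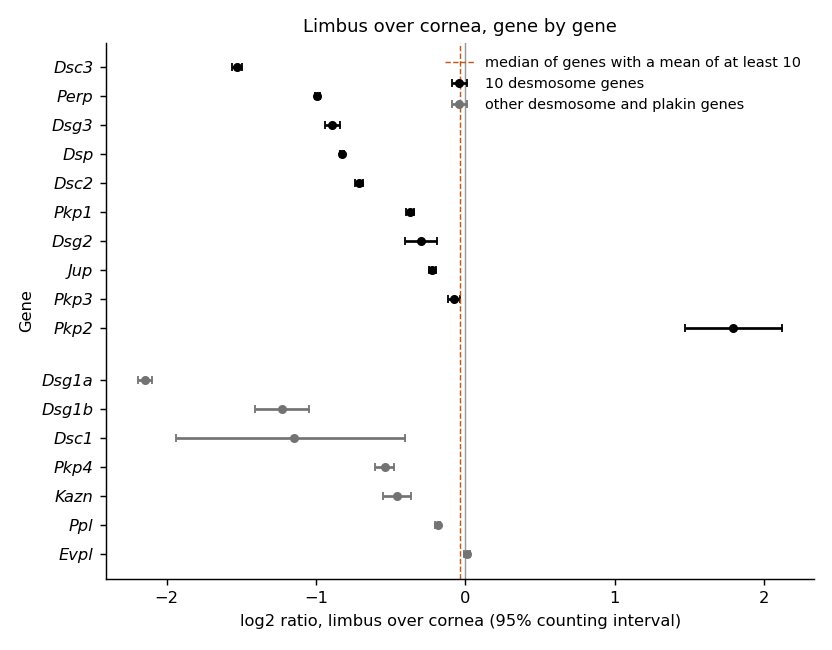
Log2 ratio of limbus over cornea with its 95% counting interval for the 10 desmosome genes (black) and for the 7 other desmosome and plakin genes above 3 reads on both sides (grey); the dashed line is the median of genes with a mean of at least 10. Dsc3 lies at -1.53, Pkp2 at 1.79 to the right of zero, and Dsg1a, at -2.14, lies left of all.

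A ratio of 2 genes within a library does not depend on how the libraries are scaled, and the balance of isoforms differed beyond counting error in every family. Reads of Dsc3 per read of Dsc2 were 0.986 (cornea) and 0.560 (limbus), a log2 odds ratio of -0.82 (-0.86 to -0.77). Reads of Dsg3 per read of Dsg2 were 6.33 (cornea) and 4.19 (limbus), a log2 odds ratio of -0.59 (-0.71 to -0.47). Pkp1 per Pkp3 was 2.45 in the cornea and 2.003 in the limbus, with a log2 odds ratio of -0.29 (-0.34 to -0.24). The balance moved furthest for Pkp2, with a log2 odds ratio of 1.87 (1.54 to 2.20) for Pkp2 to Pkp3 and -2.16 (-2.49 to -1.84) for Pkp1 to Pkp2.

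Per kilobase of exon, Dsc3 made up 42.8% of the 4 cadherins in the cornea and 30.1% in the limbus, while Dsc2 made up 44.4% and 55.0%. Dsg3 stood at 11.3% and 12.3% and Dsg2 at 1.505% and 2.48%. The 2 desmocollins stood at 682% of the level of these 2 desmogleins in the cornea and 575% in the limbus. With all 3 desmocollins and 6 desmogleins of the cluster counted, Dsg1a among them, the share was 188% and 275%, so the order of the tissues turned with the genes included. Among the plakophilins, Pkp1 took 63.7% and 58.5%, Pkp3 took 36.1% and 40.5%, and Pkp2 took 0.244% and 1.0%. Pkp2 was thus a small part of the plakophilin reads in both tissues.

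**Figure D3:**
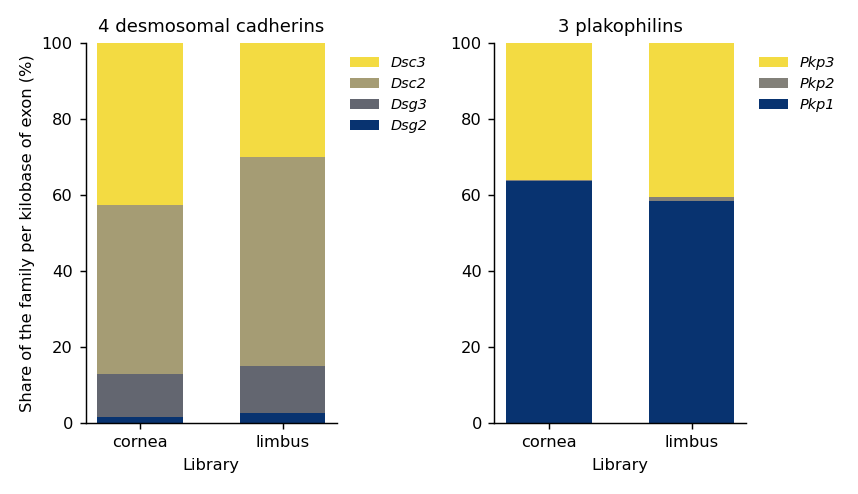
Share of each gene (%, per kilobase of exon) in the 4 desmosomal cadherins (left) and the 3 plakophilins (right), 1 stacked bar per library, with no error bars. Dsc3 takes 42.8% of the cornea bar and 30.1% of the limbus bar, and Pkp2 is a thin band of 1.0% in the limbus.

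The direction of the small ratios depended on the scaling between libraries. Total reads moved every log2 ratio by 0.21 toward the limbus, and the background split then turned from 40.5% cornea and 36% limbus to 29.7% and 47.8%. Under that scaling 6 of the 10 genes were higher in the cornea and 2 in the limbus, the remaining 2 being Jup and Dsg2. The median of the 10 genes was then -0.33 beside 0.17 for the background. Dsc3, Perp, Dsg3, Dsp, Dsc2 and Pkp1 stayed higher in the cornea and Pkp2 stayed higher in the limbus under all 4 scalings.

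**Figure D4:**
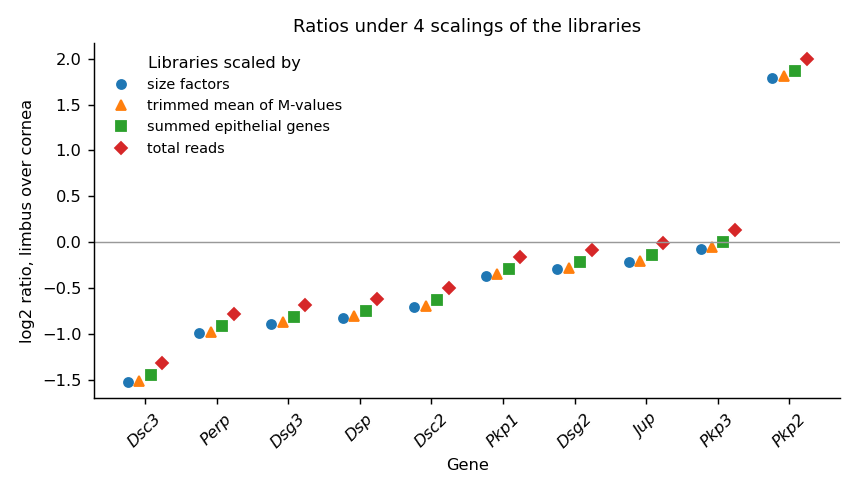
Log2 ratio of limbus over cornea of the 10 genes under 4 scalings of the libraries, 1 symbol per scaling and no error bars. The 7 leftmost genes lie below zero under each scaling, Jup touches zero under total reads, Pkp3 lies at or above zero under 2 of them, and Pkp2 lies near 2 under each.

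Of the other desmosome and plakin genes, 7 exceeded 3 reads on both sides. Of these 7, the cornea was the higher side for 6 and the limbus for 0, with a median log2 ratio of -0.54 (5 and 2 genes and -0.33 under total reads). Pkp4, an armadillo protein of the plakophilin group that also joins adherens junctions, had 4820 and 3102 reads, a log2 ratio of -0.54. Kazn, which codes for the periplakin-binding protein kazrin, had 2365 and 1611 reads, a log2 ratio of -0.46. Periplakin (Ppl) had 62447 and 51416 reads, a log2 ratio of -0.18 that turned to 0.02 under total reads, and envoplakin (Evpl), its partner in the cornified envelope, stood at 43664 and 41261 reads, a log2 ratio of 0.01 (-0.01 to 0.03). The 2 envelope plakins thus lay closer to equality than Dsp, the plakin of the desmosome.

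Genes listed for other junctions were more mixed in direction, though hemidesmosome genes had nearly the same ratio of summed levels. The log2 ratio of summed levels was -0.73 for hemidesmosome genes and -0.76 for the 10 desmosome genes. It was -0.20 for adherens junction genes and 0.06 for tight junction genes. Of the hemidesmosome sums, Col17a1 alone made up 63562 of 100683 normalized reads in the cornea and 25611 of 60684 in the limbus. The closeness of the hemidesmosome and desmosome sums thus rested largely on that gene. Of 8 adherens junction genes, the cornea was higher for 5 and the limbus for 2, with a median log2 ratio of -0.14. The most abundant adherens junction genes were the catenins Ctnna1 (-0.24), Ctnnb1 (-0.36) and Ctnnd1 (-0.15) and the nectin Nectin4 (-0.03, an interval that includes 0). Of 9 hemidesmosome genes, which anchor basal cells to the basement membrane, the cornea was higher for 6 and the limbus for 3, with a median of -0.25. Col17a1 stood at -1.31, Itga6 at -0.93 and Itgb4 at -0.25, and plectin (Plec) at 0.54. Of 11 tight junction genes, the cornea was higher for 4 and the limbus for 5, with a median of 0.09, and the examples were F11r (0.03, an interval that includes 0), Cldn4 (0.47) and Tjp3 (0.42). Of 14 keratins, the filaments that desmosomes anchor, the limbus was higher for 12 and the cornea for 2, with a median of 2.56. Their summed level leaned the other way, the limbus standing at 0.804 of the cornea. Krt12 stood at -2.19, Krt5 at -0.41, Krt15 at 3.32 and Krt6b at 0.26. Under total reads the median turned to 0.07 for the adherens junction list and stood at -0.05 for the hemidesmosome list and 0.30 for the tight junction list, with 3, 4 and 3 genes higher in the cornea and 5, 3 and 7 in the limbus. No test between the lists was made, and the desmosome genes were chosen with results of these data known.

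**Figure D5:**
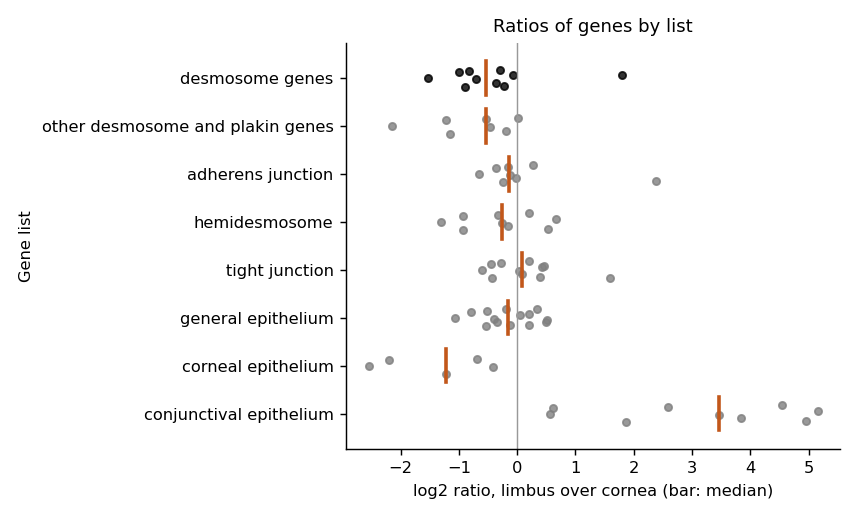
Log2 ratio of limbus over cornea of single genes (points) in 8 lists, with the list median as a bar; genes with 3 reads or fewer in a library are left out. The bars of the desmosome genes and of the other desmosome and plakin genes lie at -0.54, those of adherens junction, hemidesmosome, tight junction and general epithelium between -0.25 and 0.09 (the adherens and general epithelium bars turn positive under total reads), corneal epithelium at -1.22 and conjunctival epithelium at 3.47.

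The 2 libraries also differed in marker genes of cell types and tissues. All 5 corneal epithelium markers were higher in the cornea (median log2 ratio -1.22), and their summed level in the limbus was 0.409 of that in the cornea. Of 14 general epithelium genes, the cornea was higher for 8 and the limbus for 5, with a median of -0.16 that turned to 0.04 under total reads and a summed limbal level of 0.948 of the corneal one. Of 9 conjunctival epithelium genes above 3 reads, the limbus was higher for 8 and the cornea for 0, and their sum was 3.51 times that of the cornea. Summed levels of the markers of other tissue were higher in the limbus. The sum was 25.2 times the corneal one for skeletal muscle (7 of 7 genes above 3 reads higher in the limbus), 24.7 for smooth muscle (3 of 3), 15.1 for blood vessel endothelium (4 of 4), 10.9 for lens (3 of 3) and 9.79 for retina (4 of 4). It was 5.38 times for pigment cells (5 of 5), 2.39 for leukocytes (7 of 7), 1.64 for Schwann cells (3 of 3), 1.55 for corneal endothelium (4 of 4), 1.52 for lymphatic endothelium (3 of 3), 1.65 for epidermis (2 of 3) and 1.45 for stromal cells, where the limbus was higher for 3 of 7 genes, the cornea also for 3, and the median log2 ratio was -0.01. Among them, Des had 0 cornea reads beside 305 limbus reads and Ccl21a was listed at 0. Epidermal genes stayed scarce, with Krt10 at 224 and 263 normalized reads, and Flg2 was listed at 0. The part of these differences in the ratios of the desmosome genes, that of Pkp2 included, was not tested.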

How the data were processed

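RNA of each tissue, pooled over eyes, was made into stranded total RNA libraries and sequenced on an Illumina NextSeq. According to the methods, CLC Genomics Workbench served the authors to trim adaptors, to map the reads to the mouse genome (build GRCm38, mm10) and to normalize by trimmed mean of M-values. They deposited 1 table with, per gene, the mean normalized signal over the libraries and their own log2 fold change with its standard error, p-value and adjusted p-value. None of these comparison values is printed here and the p-values were not used. The deposited table is labelled deseq, a program the methods do not name. Its means may therefore be scaled otherwise than by the trimmed mean of the methods. The table also has no value for a numbered sample, with 0 such columns left unused. Rows with no gene name, 17484 of 40904, stayed out of every total.

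Each mean is a whole number of reads weighted 102 for the cornea and 109 for the limbus, from which size factors of 1.034 and 0.967 follow. A single pair of read numbers was possible for 6143 genes and more than 1 for 11299, where the pair was chosen that best met the deposited log2 fold change and standard error under a shrinkage model. For 99.7% of the 11299 genes the standard error was met within 0.001. For 9 of the 10 desmosome genes the next pair missed it by at least 1217 times as much, and for Pkp2 no neighbouring pair could be fitted. The step was tested on simulated data before use. The reads are thus derived, no count table was at hand, and the planned count test was not run.

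The 10 genes and the gene lists were chosen with earlier results of these data known. Named genes are the 10, all other desmosome and plakin genes, and at most the 4 most abundant genes of each other list. Outside this rule, Ccl21a and Flg2 are named because they were listed at 0. For 1 gene of these lists no single value is reported here. Alternatives were scaling to total reads, to a trimmed mean of M-values written for this work (trims of 30% and 5%) and to 14 epithelial genes, a 2-fold rule, the neighbouring pair of reads, a pseudocount of 1 and a filter of 50 reads. Positions and exon lengths are from the GENCODE annotation of GRCm38. Python 3.11.15, numpy 2.4.6, scipy 1.17.1 and pandas 2.3.3 were used for the calculations and matplotlib 3.10.9 for the figures, and exact conditional intervals of odds ratios used R 4.3.3. Depth gave each desmosome gene at least 104 cornea and 337 limbus reads.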

Additional observations from a re-analysis of the deposited data

How the results depend on the processing

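No paired analysis was possible because the table holds 1 library per tissue and no replicate numbers, so no replicate could be left out either. Scaling to total reads gave 2 genes higher in the limbus in place of 1 and a median of -0.33, and scaling to summed epithelial genes a median of -0.46. Pkp3 turned to 0.13 under the first of these and to 0.000856 (-0.04 to 0.04) under the second. With a 2-fold rule 1 gene was higher in the cornea in place of 9. With the neighbouring pair of reads, 0 genes were higher in the limbus, and the log2 odds ratios were -0.77 for Dsg3 to Dsg2, 0.28 for Pkp2 to Pkp3 and -0.59 for Pkp1 to Pkp2. For these genes the deposited standard error was missed or the pair could not be fitted, which is why it was not chosen. Without Pkp2, an alternative chosen after seeing the data, the median was -0.71. The number of genes higher in the cornea fell from 9 to 6 under total reads and to 8 under summed epithelial genes and under the neighbouring pair of reads. No recomputed median of the desmosome genes changed direction, nor did any recomputed odds ratio within a family. For Dsg2 to Jup, the log2 odds ratio turned from -0.08 to 0.13 (0.02 to 0.25) with the neighbouring pair of reads. Medians of the background and of some other gene lists also turned under total reads. Counting error limits Pkp2 and Dsg2 most, and the spread between animals is unknown for all genes.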
